A study of Callithrix jacchus with 4 samples.

Results

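The tau, neurofilament and microtubule genes are the components of the neuronal cytoskeleton: tau (MAPT) and other microtubule-associated proteins, the kinases that phosphorylate them, tubulins, neurofilament subunits, stathmins, collapsin response mediators and kinesin heavy chains. Members were chosen by gene symbol from a list of 36, of which 33 were present among the 35108 genes of the count table. TUBA1A, TUBA1B and TUBB3 were not matched by symbol and are not analysed here. All 33 passed the filter on low counts, as did 16385 genes in all. RNA was sequenced from the frontal cortex of the common marmoset, Callithrix jacchus, a New World primate, in adult animals. The 2 transgenic libraries, labelled as female, came from animals carrying a mutant APP transgene, which encodes the amyloid precursor protein and is driven by the human EF1α promoter, a promoter active in most cell types. The 2 wild-type libraries carried no transgene, and their labels give no sex. The comparison asks how expression in the transgenic cortex differed from wild type.

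Microtubules are hollow polymers of α- and β-tubulin that serve as tracks for transport along axons and dendrites. Tau binds and stabilises them in axons, and kinases such as GSK3β, CDK5 and the MARK family regulate that binding by phosphorylating tau. In Alzheimer's disease, hyperphosphorylated tau detaches and aggregates into neurofibrillary tangles. Neurofilaments are the intermediate filaments of neurons. They set the calibre of large axons, and the light chain released from damaged axons is measured in spinal fluid and blood.

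Total counts were 13462167 and 18932180 in transgenic libraries 1 and 2, and 12657323 and 13569838 in wild-type libraries 1 and 2. The members took 1.92% to 2.09% of the counts of a library. Pairs of libraries were compared by chi-square per degree of freedom across genes, which rises with unlikeness and with depth. Pairs with transgenic library 2, the deepest, were at 37.6 to 48.1. The lowest was 7.6, for transgenic library 1 with wild-type library 2, below 10.3 for the wild-type pair. The libraries thus did not group by genotype in this measure. Transgenic library 2 also stood apart in cell type markers: 8 astrocyte markers summed to 7338 and 2582 CPM in transgenic libraries 1 and 2, where CPM are counts scaled to the size of the library, against 8169 and 6807 CPM in wild-type libraries 1 and 2. Likewise, 9 oligodendrocyte markers summed to 3246 and 1191 CPM in the transgenic libraries and to 3293 and 2589 CPM in the wild-type libraries. The 8 neuronal markers summed to 10718 and 12419 CPM in the transgenic libraries, against 10516 and 11697 CPM in the wild-type libraries, so the labelled tissue had its neuronal and glial markers in every library. APP was at 2143 and 2748 CPM in the transgenic libraries, which overlapped with 1822 and 2182 CPM in wild type, and no label or header says whether reads of the transgene were counted there. KDM5D, a gene on the Y chromosome, had 0 and 0 counts in the transgenic pair, against 2 and 243 in the wild-type pair (libraries 1 and 2), so sex was confounded with genotype in part. No label states that the 2 libraries of each group came from different animals, so the p-values measure the spread between these libraries, which may be technical.

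The clearest pattern among the members was in the neurofilaments. All 4 subunit genes were lower in both transgenic libraries than in both wild-type libraries, as were 19.4% of all genes tested, with the heavy and medium chains at a fitted 0.475 and 0.531 of the wild-type level and the light chain and α-internexin closer to it. DPYSL3, a collapsin response mediator of growing axons, was about 2.10-fold higher. The other 28 members, tau and its kinases included, had fitted differences of at most 0.43 on the log2 scale. None of the 33 passed edgeR's quasi-likelihood test adjusted over all genes (adjusted p of 0.789 to 0.971), where 0% of all genes tested passed. At an unadjusted p under 0.05 in edgeR, 2 members were higher, DPYSL3 and TUBB2A, against 3.23% of all genes, and 2 were lower, NEFH and NEFM, against 2.39% of all genes. DESeq2 called 2 members, NEFH and DPYSL3, against 0.201% of all genes that it tested, and limma-voom called 0.

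NEFH encodes the heavy neurofilament chain, whose long tail carries many phosphorylation sites and projects from the filament. It was at 144 and 112 CPM in transgenic libraries 1 and 2, against 324 and 213 CPM in wild-type libraries 1 and 2. Both transgenic values lay below both wild-type values, and the wild-type libraries themselves differed by 0.61 on the log2 scale. The means were 128 ± 22.6 CPM in transgenic and 269 ± 78.6 CPM in wild-type cortex (SD, n = 2 each). The fitted log2 fold change was -1.07 ± 0.25 (SE), with an adjusted p of 0.79 in edgeR and 0.028 in DESeq2. By unadjusted p in edgeR it stood at place 92 of the 16385 genes.

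NEFM, the medium chain, was at 415 and 360 CPM in the transgenic libraries, against 877 and 583 CPM in the wild-type libraries. The groups did not overlap, and the log2 fold change was -0.91 ± 0.23 (SE, n = 2 each; adjusted p = 0.79 in edgeR and 0.076 in DESeq2). NEFL, the light chain that forms the core of the filament, was at 571 and 622 CPM in the transgenic libraries, against 963 and 689 CPM in the wild-type libraries. Its groups were also separate, but transgenic library 2 and wild-type library 2 lay close together, and the log2 fold change was -0.47 ± 0.20 (SE, n = 2 each; adjusted p = 0.79 in edgeR). INA, which encodes α-internexin, a subunit that joins the neurofilaments of the central nervous system, was at 253 and 283 CPM in the transgenic libraries, against 319 and 296 CPM in the wild-type libraries. Its log2 fold change was -0.20 ± 0.13 (SE, n = 2 each; adjusted p = 0.79 in edgeR).

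Wild-type library 1 was the highest library for all 4 subunits and set much of the size of the difference. Without it the log2 fold changes were -0.75 for NEFH, -0.60 for NEFM, -0.21 for NEFL and -0.15 for INA. Without wild-type library 2, the library with 243 KDM5D counts, they were -1.34, -1.18, -0.69 and -0.25. Without transgenic library 2 they were -0.91 for NEFH, -0.82 for NEFM, -0.54 for NEFL and -0.29 for INA. Markers of microglia and vessels were lower along with the neurofilaments in both transgenic libraries. The 7 microglial markers summed to 124 and 61.8 CPM in the transgenic libraries, against 156 and 217 CPM in the wild-type libraries, with 5 of 7 genes lower without overlap. The 5 endothelial markers summed to 154 and 108 CPM in the transgenic libraries, against 261 and 182 CPM in the wild-type libraries. Of these markers, 4 of 5 genes were lower without overlap. Over all genes tested, 19.4% were lower without overlap. The sums for astrocytes and oligodendrocytes lay below the wild-type range in transgenic library 2 and within it in transgenic library 1. The part of any of these cell types in the neurofilament result was not tested. Without transgenic library 1, edgeR called NEFH (log2 fold change -1.27, adjusted p = 0.020) and NEFM (-1.02, adjusted p = 0.036), in a fit where it called 1710 genes, or 9.92% of those tested. In bulk tissue, fewer cells of a type and less RNA per cell cannot be told apart.

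**Figure D1:**
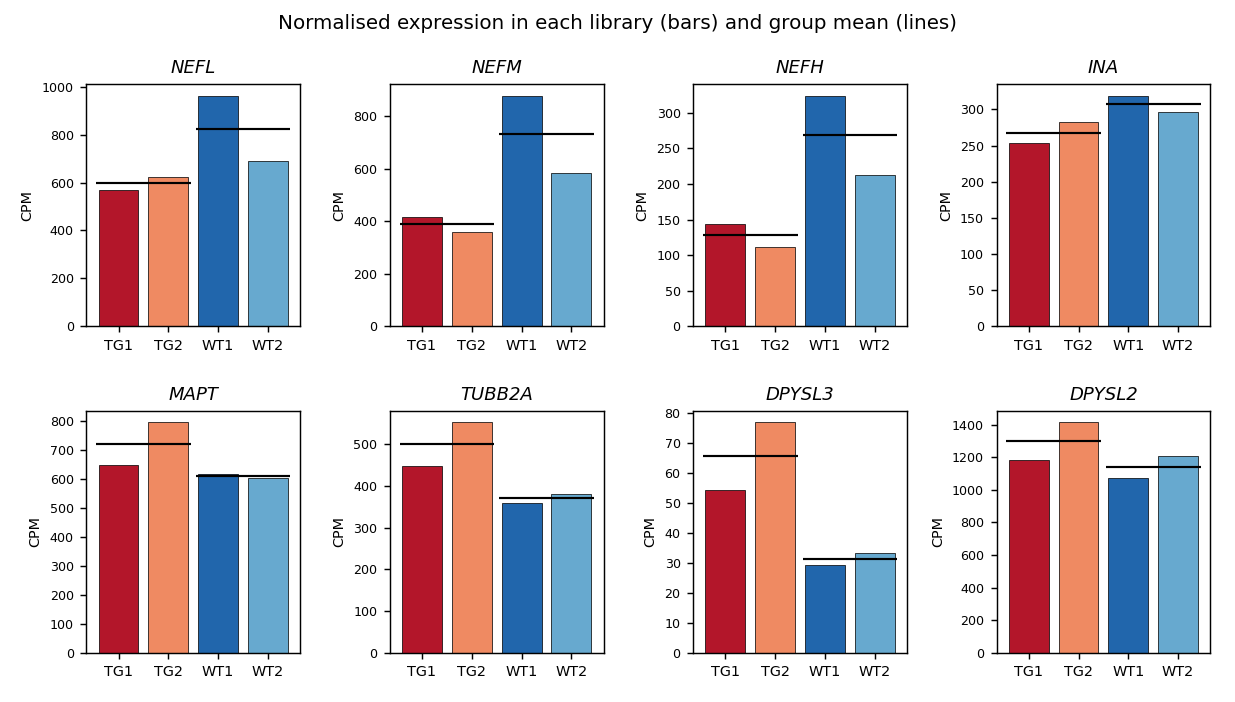
CPM of 8 members in transgenic (TG1, TG2) and wild-type (WT1, WT2) libraries, 1 bar per library, with a line at the mean of each group. The 4 neurofilament genes in the upper row were lower in both transgenic libraries, with NEFH at 144 and 112 CPM in TG1 and TG2, against 324 and 213 CPM in WT1 and WT2, and DPYSL3 in the lower row was higher in both.

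The 4 subunits did not differ by the same amount, which shows in the ratios of their counts within each library. Such a ratio does not depend on how libraries are scaled, and it is not a ratio of molecules, since transcript lengths were not used. The NEFH count was 0.252 and 0.18 of the NEFL count in transgenic libraries 1 and 2, against 0.337 and 0.31 in wild-type libraries 1 and 2. The NEFM count was 0.727 and 0.578 of the NEFL count in the transgenic libraries, against 0.911 and 0.846 in the wild-type libraries. Thus both longer chains were lower relative to the light chain in both transgenic libraries. The INA count was 0.443 and 0.454 of the NEFL count in the transgenic libraries, against 0.332 and 0.43 in the wild-type libraries, where wild-type library 2 came close to the transgenic pair. NEFH relative to NEFM, a pair added after the values were seen, was at 0.346 and 0.31 in the transgenic libraries, against 0.37 and 0.366 in the wild-type libraries. A comparison of 2 libraries with 2 cannot give a two-sided exact permutation p below 0.33, so no p is given for any ratio. Of the 12 planned ratios of members that could be computed, 4 were higher and 6 lower without overlap, and 2 overlapped. Separate groups were thus common among these ratios.

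The neuronal markers were mixed in direction. Their log2 fold changes had a median of 0.14, and by sign 5 of the 8 were higher and 3 lower. The groups did not overlap for 6 of them, with SYT1, GAD1 and GAD2 higher and SNAP25, RBFOX3 and NRGN lower in both transgenic libraries, that is 37.5% each way, against 19.5% of all genes higher and 19.4% lower. The excitatory transporter gene SLC17A7 was at 1157 and 1359 CPM in the transgenic libraries, against 1066 and 1261 CPM in the wild-type libraries, and these overlapped. RBFOX3, the gene for the nuclear protein NeuN, was at 284 and 270 CPM in the transgenic libraries, against 402 and 368 CPM in the wild-type libraries. GAD2, a glutamate decarboxylase of inhibitory neurons, was at 284 and 311 CPM in the transgenic libraries, against 232 and 235 CPM in the wild-type libraries. RBFOX3 was thus lower in both transgenic libraries and GAD2 higher. Their part in the neurofilament result was not tested.

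DPYSL3 (also called CRMP4) and DPYSL2 (CRMP2) encode collapsin response mediators, cytosolic proteins that carry semaphorin signals to the cytoskeleton, and CRMP2 also binds tubulin dimers. DPYSL3 was at 54.5 and 77.0 CPM in transgenic libraries 1 and 2, against 29.4 and 33.2 CPM in wild-type libraries 1 and 2. The groups were well separated, with wild-type libraries that differed by only 0.17 on the log2 scale and transgenic libraries that differed by 0.50. The log2 fold change was 1.07 ± 0.21 (SE, n = 2 each), with an adjusted p of 0.79 in edgeR and 0.026 in DESeq2. That fold change ranged from 0.80 without transgenic library 2 to 1.30 without transgenic library 1. DPYSL2 was at 1184 and 1414 CPM in the transgenic libraries, against 1070 and 1207 CPM in the wild-type libraries, and its groups overlapped. The DPYSL3 count was 0.046 and 0.0545 of the DPYSL2 count in the transgenic libraries, against 0.0275 in each wild-type library.

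Of the other genes of this family, CRMP1, DPYSL4 and DPYSL5, all 3 were higher in sign and none passed in edgeR. DPYSL4 was at 41.2 and 53.7 CPM in the transgenic libraries, against 32.7 and 37.5 CPM in the wild-type libraries. CRMP1 was at 242 and 290 CPM in the transgenic libraries, against 190 and 229 CPM in the wild-type libraries. Neither gene's groups overlapped, with log2 fold changes of 0.44 ± 0.19 for DPYSL4 and 0.34 ± 0.16 for CRMP1 (SE, n = 2 each; adjusted p = 0.79 in edgeR). Over all genes tested, 19.5% were higher without overlap. DPYSL5 overlapped, at 40.2 and 27.0 CPM in the transgenic libraries, against 26.1 and 28.6 CPM in the wild-type libraries.

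Tau itself was slightly higher in sign. MAPT was at 646 and 794 CPM in transgenic libraries 1 and 2, against 616 and 601 CPM in wild-type libraries 1 and 2. Transgenic library 1 lay just above the wild-type pair and transgenic library 2 further above, with a log2 fold change of 0.24 ± 0.16 (SE, n = 2 each; adjusted p = 0.79 in edgeR) that was 0.08 without transgenic library 2. MAP2, the dendritic counterpart of tau, was at 1658 and 1837 CPM in the transgenic libraries, against 1610 and 1548 CPM in the wild-type libraries. MAP6, which protects microtubules from cold and drug disassembly, was at 98.3 and 107 CPM in the transgenic libraries, against 87.8 and 93.4 CPM in the wild-type libraries. MAPT, MAP2 and MAP6 did not overlap between the groups, by margins that were small beside the standard errors (0.13 to 0.17 on the log2 scale). Over all genes tested, 19.5% were higher without overlap. MAP1A, MAP1B and MAP4, whose products are a dendritic, an axonal and a widely expressed microtubule-binding protein, overlapped, with log2 fold changes of 0.07, -0.06 and -0.03. MAP1B relative to MAP1A was 1.09 and 1.12 in counts in the transgenic libraries, against 1.19 and 1.23 in the wild-type libraries. That ratio did not overlap between the groups, as was common among the planned ratios.

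The tau kinases differed little. By sign, 7 of 10 were higher and 3 lower, and their log2 fold changes ran from -0.10 to 0.26 around a median of 0.14. MARK1, a kinase that phosphorylates the microtubule-binding repeats of tau, was at 86.9 and 96.8 CPM in the transgenic libraries, against 71.6 and 82.3 CPM in the wild-type libraries. GSK3B was at 310 and 354 CPM in the transgenic libraries, against 283 and 290 CPM in the wild-type libraries. MARK4 was at 118 and 135 CPM in the transgenic libraries, against 115 and 109 CPM in the wild-type libraries. These 3 of the 10 kinases were higher in both transgenic libraries, as were 19.5% of all genes tested. Their log2 fold changes were 0.26 ± 0.14, 0.21 ± 0.13 and 0.17 ± 0.13 (SE, n = 2 each), with adjusted p of 0.79 to 0.80 in edgeR.

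GSK3A, the close relative of GSK3B, was at 187 and 210 CPM in the transgenic libraries, against 197 and 207 CPM in the wild-type libraries. As a ratio of counts, GSK3A was 0.601 and 0.592 of GSK3B in the transgenic libraries, against 0.695 and 0.715 in the wild-type libraries. The libraries of each group lay close together in this ratio. FYN, a Src-family kinase that binds tau, was at 135 and 122 CPM in the transgenic libraries, against 138 and 137 CPM in the wild-type libraries, and was the 1 kinase lower in both. CDK5 and its activator genes CDK5R1 and CDK5R2, which encode p35 and p39, had log2 fold changes of 0.11, 0.19 and -0.04, with groups that overlapped for each. MARK2 and MARK3 also overlapped, with log2 fold changes of 0.05 and 0.17. CAPN1, the gene for the calpain that cleaves p35 to the hyperactive p25, was at 67.4 and 74.9 CPM in the transgenic libraries, against 76.5 and 63.3 CPM in the wild-type libraries, with no direction beyond the spread.

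The 4 β-tubulins were all higher in sign, at a median of 0.23 on the log2 scale. TUBB2A, a neuron-enriched isotype, was at 447 and 552 CPM in transgenic libraries 1 and 2, against 360 and 380 CPM in wild-type libraries 1 and 2. Both transgenic libraries lay above both wild-type libraries, with a log2 fold change of 0.43 ± 0.16 (SE, n = 2 each; unadjusted p = 0.038 and adjusted p = 0.79 in edgeR, 0.99 in DESeq2). Without transgenic library 1 edgeR called it (0.57, adjusted p = 0.036). TUBB was at 364 and 438 CPM in the transgenic libraries, against 322 and 354 CPM in the wild-type libraries. TUBB4B, a broadly expressed isotype, was at 213 and 251 CPM in the transgenic libraries, against 194 and 205 CPM in the wild-type libraries. Both of these genes were higher in both transgenic libraries, though transgenic library 1 lay near wild-type library 2. TUBB4A, a brain-enriched isotype, was at 1373 and 1576 CPM in the transgenic libraries, against 1340 and 1439 CPM in the wild-type libraries, and its groups overlapped.

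The β-tubulin genes are alike in sequence, and no source used here says how reads that match several of them were counted, so the levels of single isotypes are uncertain. TUBB2B, the near-identical neighbour of TUBB2A that is also made in astrocytes, was at 107 and 52.3 CPM in the transgenic libraries, against 128 and 110 CPM in the wild-type libraries, the opposite direction to TUBB2A. As a sum, added after the values were seen, TUBB2A and TUBB2B were at 554 and 604 CPM in the transgenic libraries, against 488 and 490 CPM in the wild-type libraries, which was higher in both transgenic libraries. TUBB2B made up 19.3% and 8.66% of their joint counts in the transgenic libraries, against 26.2% and 22.5% in the wild-type libraries. Transgenic library 2, with the lowest share, also had the lowest summed astrocyte markers. The part of astrocytes in that share was not tested.

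Stathmins sequester tubulin dimers and promote microtubule shrinkage, and STMN2 is the member tied to axonal regrowth. All 4 genes were higher in sign, by 0.03 to 0.24 on the log2 scale. STMN4 was at 259 and 293 CPM in the transgenic libraries, against 245 and 231 CPM in the wild-type libraries. STMN1 was at 543 and 667 CPM in the transgenic libraries, against 482 and 541 CPM in the wild-type libraries. STMN4 was separate between the groups and STMN1 all but touched, with transgenic library 1 beside wild-type library 2. STMN2 was at 608 and 770 CPM in the transgenic libraries, against 650 and 589 CPM in the wild-type libraries. STMN3 was at 414 and 505 CPM in the transgenic libraries, against 456 and 446 CPM in the wild-type libraries. For STMN2 and STMN3 transgenic library 1 lay within or below the wild-type pair while transgenic library 2 stood above it. The STMN2 count was 1.47 and 1.52 of the STMN3 count in the transgenic libraries, against 1.42 and 1.32 in the wild-type libraries. The ratios of MAP2 to MAPT, of CDK5R1 and CDK5R2 to CDK5, of STMN1 to STMN2 and of KIF5A to KIF5C overlapped or all but touched between the groups.

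KIF5A and KIF5C encode neuronal heavy chains of kinesin-1, the motor that carries cargo, neurofilaments among it, toward the axon tip. KIF5A was at 2304 and 2236 CPM in the transgenic libraries, against 2802 and 2314 CPM in the wild-type libraries. Transgenic library 1 and wild-type library 2 were almost equal, and the log2 fold change of -0.17 ± 0.19 (SE, n = 2 each; adjusted p = 0.84 in edgeR) was -0.03 without wild-type library 1. KIF5C was at 1588 and 1455 CPM in the transgenic libraries, against 1433 and 1486 CPM in the wild-type libraries, which overlapped.

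**Figure D2:**
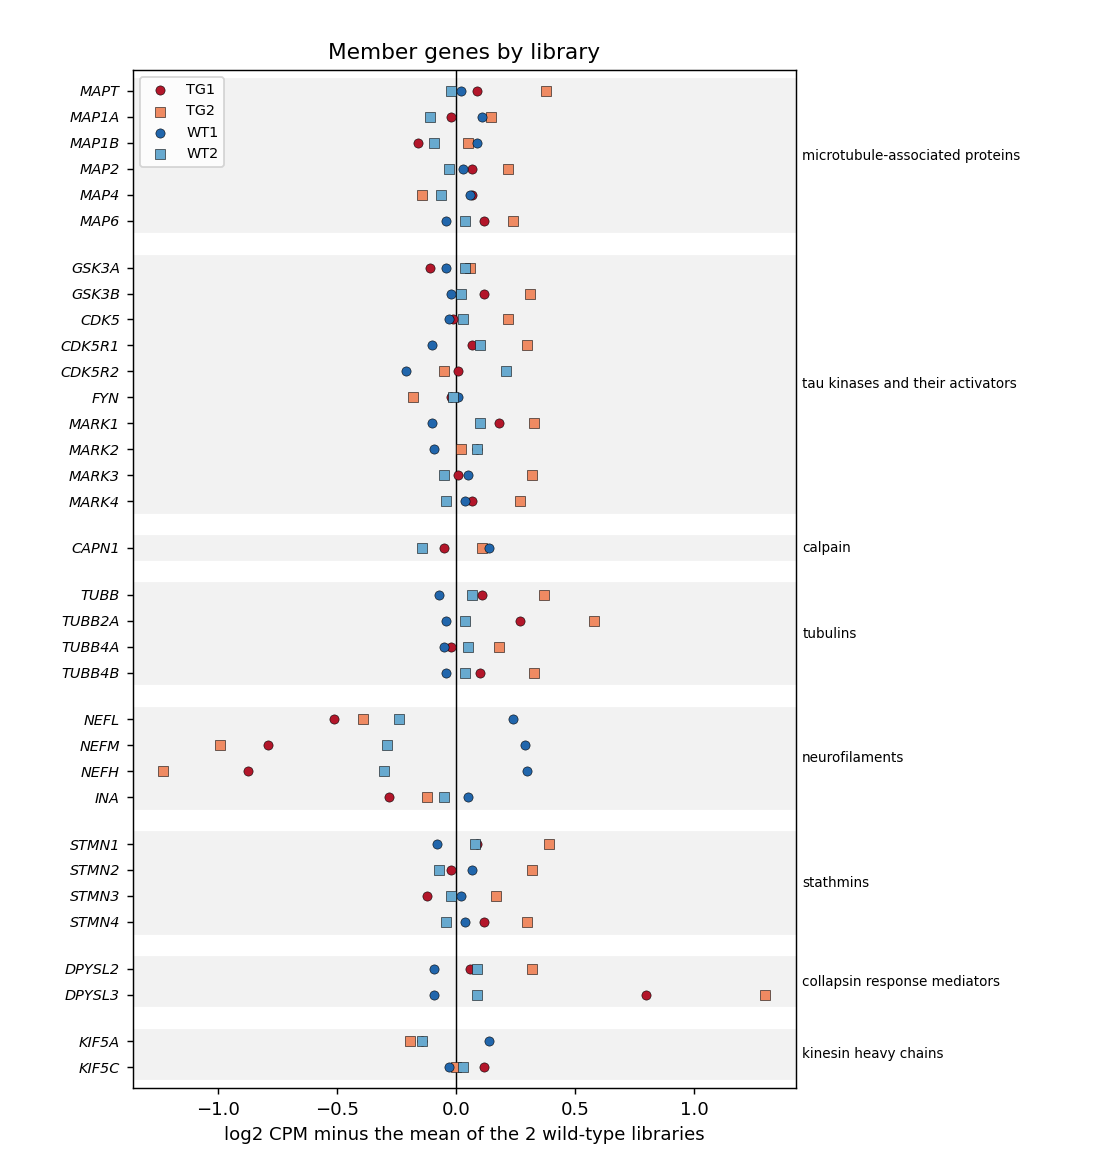
Log2 CPM of each of the 33 members in each library, minus the mean of the wild-type libraries, with genes grouped by role and 1 point per library. The neurofilament genes lie left of 0 in TG1 and TG2, DPYSL3 lies right of it, and for 25 of the 33 genes TG2 lies to the right of TG1.

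Across the 33 members, 23 were higher in sign and 10 lower, and their median log2 fold change was 0.11, beside 0.00 over all genes tested. Both transgenic libraries lay above both wild-type libraries for 12 members, or 36.4%, against 19.5% of all genes. They lay below for 6, or 18.2%, against 19.4% of all genes. The 6 were the 4 neurofilament genes, FYN and KIF5A. The members of a list share libraries and cell types, so these shares are no test. Set against the wild-type mean, the median member was 0.06 higher in transgenic library 1 and 0.22 higher in transgenic library 2 in log2 CPM, and the median log2 fold change was 0.05 with transgenic library 2 left out and 0.22 with transgenic library 1 left out. The median was thus further from 0 in the library whose summed astrocyte and oligodendrocyte markers were low. The part of these cell types in that median was not tested. Without the neurofilaments, the median log2 fold change of the 29 remaining members was 0.15, and 23 of them were higher in sign.

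**Figure D3:**
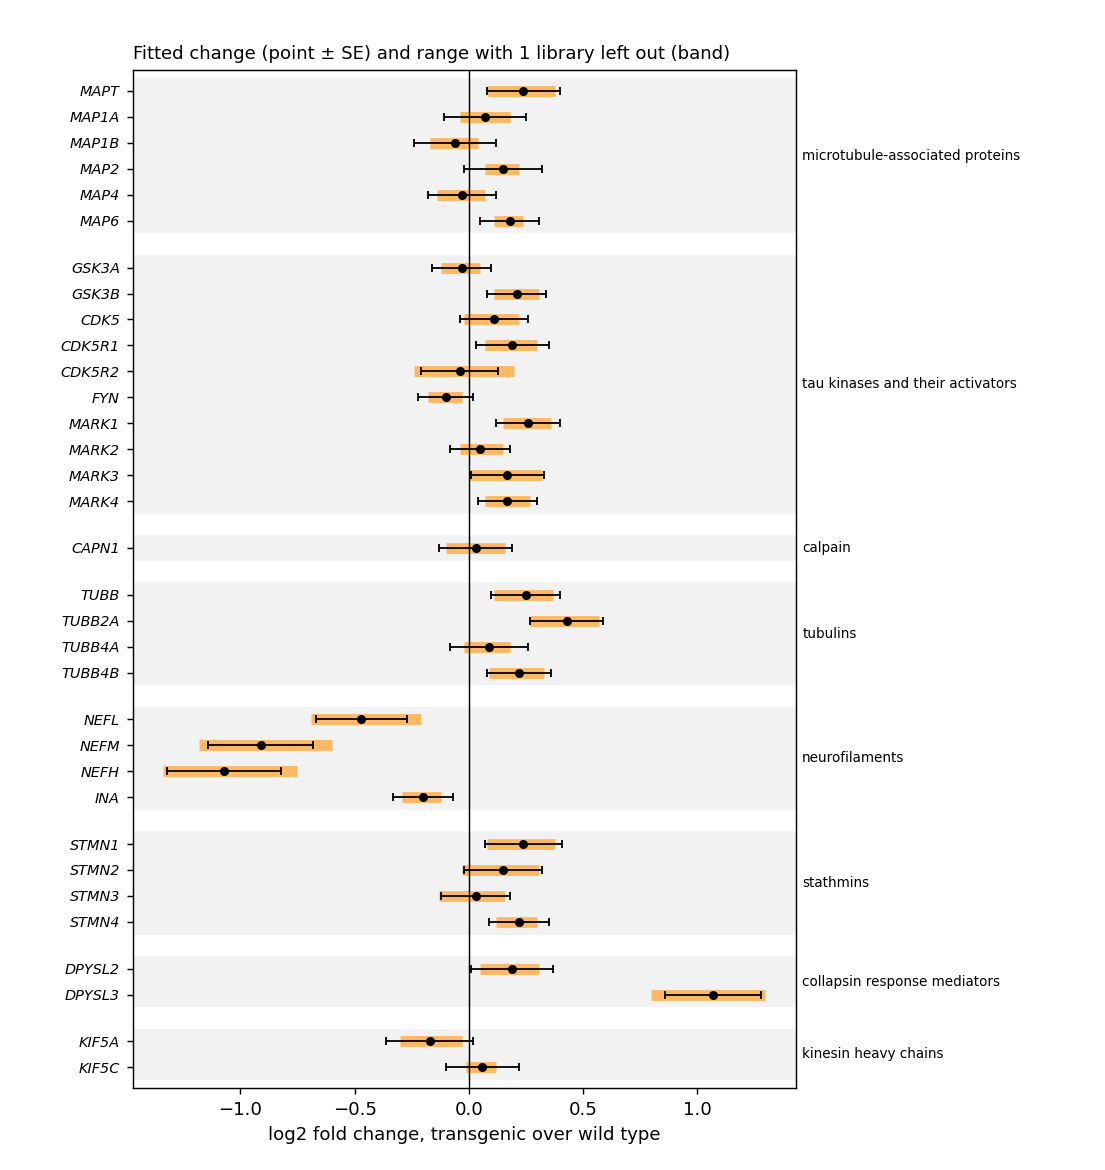
Fitted log2 fold change of transgenic over wild type for the 33 members (point, with bars of 1 SE, n = 2 libraries a group) and the range of that value when each library was left out in turn (band). The bands of 12 members cross 0, and most of the others stay clear of it. Among those clear of 0, NEFH, NEFM, NEFL and DPYSL3 are at -1.34 to -0.75, -1.18 to -0.60, -0.69 to -0.21 and 0.80 to 1.30. TUBB2A is at 0.27 to 0.57, INA at -0.29 to -0.12 and MAPT at 0.08 to 0.38.

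**Figure D4:**
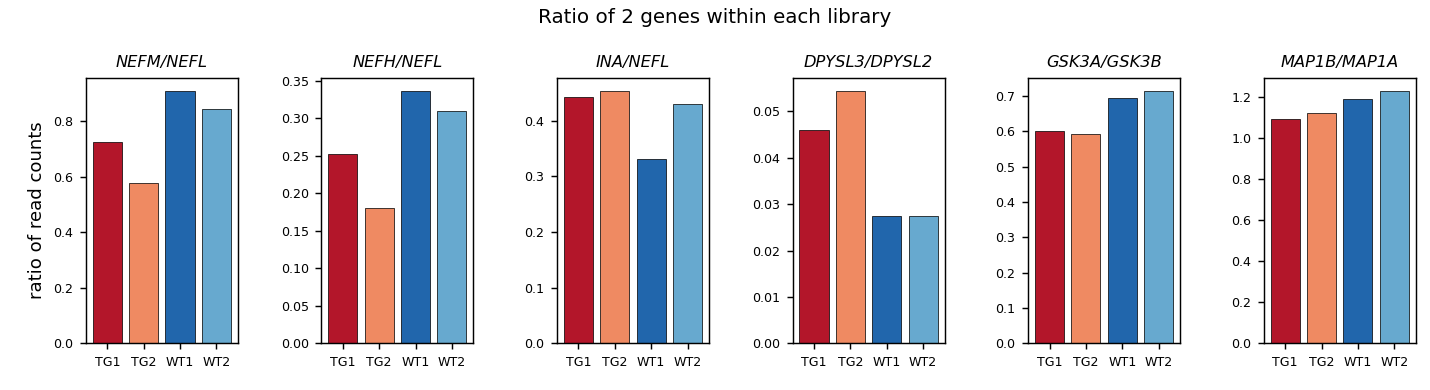
Ratio of the read counts of 2 genes within each transgenic (TG1, TG2) and wild-type (WT1, WT2) library, 1 bar per library. NEFM/NEFL and NEFH/NEFL are lower in both transgenic libraries, DPYSL3/DPYSL2 is higher at 0.046 and 0.0545 in TG1 and TG2, against 0.0275 in each of WT1 and WT2, and GSK3A/GSK3B is lower at 0.601 and 0.592 in TG1 and TG2, against 0.695 and 0.715 in WT1 and WT2.

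Beyond the members, 12 companion lists of cytoskeletal genes were examined, with 144 of 148 genes tested. None of the 144 passed in edgeR or DESeq2 adjusted over all genes. At an unadjusted p under 0.05 in edgeR there were 4, of which DCLK2, CAMSAP1 and LMNA were higher and NES lower. Over all genes that share was 3.23% higher and 2.39% lower, so the companion genes did not exceed the background. By sign 89 were higher and 55 lower, and the median log2 fold change was 0.07. Set against the wild-type mean, 76 of the 144 were higher in transgenic library 1 and 93 in transgenic library 2. Their median deviations in log2 CPM were 0.01 and 0.11 in these libraries. Without transgenic library 1, where edgeR called 9.92% of all genes, 13 companion genes were called, 5 higher and 8 lower. Those whose levels are described were LMNA (1.33) and PRPH (1.99) on the higher side and NES (-2.01), FIGN (-1.41), CAPN2 (-1.27), TUBB2B (-1.19) and KIF21B (-0.71) on the lower side, as log2 fold changes. In each of the other 3 fits that left out a library edgeR called 0 companion genes. No companion list had a median as far from 0 as the neurofilaments, whose median was -0.69. Among the marker lists, however, the median was -0.69 for endothelial cells and -1.28 for microglia. Other marker lists ran from -0.52 (astrocytes) to 0.58 (meningeal fibroblasts), apart from 1 blood gene at -1.2.

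Among 22 other microtubule-binding and end-binding proteins, 13 were higher in sign (median log2 fold change 0.05). DCLK2, a doublecortin-like kinase that binds microtubules, was at 71.4 and 71.0 CPM in the transgenic libraries, against 57.0 and 56.2 CPM in the wild-type libraries. CAMSAP1, which caps microtubule minus ends, was at 142 and 153 CPM in the transgenic libraries, against 111 and 124 CPM in the wild-type libraries. The DCLK2 values agreed closely within each group, those of CAMSAP1 less so. The log2 fold changes of DCLK2 and CAMSAP1 were 0.33 ± 0.12 and 0.33 ± 0.13 (SE, n = 2 each; adjusted p = 0.79 in edgeR). On the lower side were MAP9, at -0.23 on the log2 scale, and TPPP, a tubulin-polymerising protein of oligodendrocytes, at -0.19. Of 8 other tubulins, 5 were lower in sign, TUBB2B and the low-count TUBE1 among them, with a median of -0.08.

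Of 17 other tau kinases, 14 were higher in sign (median 0.07). Set against the wild-type mean, 8 of the 17 were higher in transgenic library 1 and 14 in transgenic library 2. Their median deviations in log2 CPM were -0.02 and 0.15 in these libraries. DYRK1A, a kinase that primes tau for GSK3β, was at 131 and 153 CPM in the transgenic libraries, against 111 and 117 CPM in the wild-type libraries. Its groups were separate, with a log2 fold change of 0.31 ± 0.13 (SE, n = 2 each; adjusted p = 0.79 in edgeR), while the brain kinase gene BRSK1 was at -0.20 on that scale. Of 14 tau phosphatase genes, which include subunits of PP2A and calcineurin, 10 were higher in sign (median 0.12), with PPP5C at 0.24 and PPP2R2B at 0.11. Their median deviations from the wild-type mean were 0.01 and 0.15 in transgenic libraries 1 and 2. No kinase and no phosphatase of these lists passed in edgeR.

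The lists of motors were near 0. The 13 other kinesin genes had a median log2 fold change of 0.06, with KIF17 at 0.67 from counts under 6 CPM, KIF3C at 0.20, KIF21B at -0.42 and KIF3A at -0.18. The 19 genes of cytoplasmic dynein and dynactin, the motor that runs toward the cell body, had a median of 0.08, with PAFAH1B1 (LIS1) at 0.20, BICD1 at 0.11 and DYNLL2 at -0.12. The 9 genes of the axonal spectrin and ankyrin scaffold had a median of 0.03, with SPTBN1 at 0.15, DST at -0.20 and SPTBN4 at -0.13. None of these lists had a median as low as the neurofilament median of -0.69. The kinesin list covers motors of axons and dendrites, and the difference between lists was not tested.

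Tubulin-modifying enzymes (14 genes, median -0.01) and severing or folding factors (13 genes, median 0.01) were mixed in sign, with 6 higher and 8 lower in the first list and 7 higher and 6 lower in the second. In the first list VASH2 was at 0.47 on the log2 scale, from levels of at most 5.2 CPM. The acetyltransferase gene ATAT1 was at 0.16, and the ligase genes TTLL1 and TTLL11 were at -0.54 and -0.27 on that scale. In the second list TBCD was at 0.35, the katanin subunit gene KATNA1 at -0.28 and FIGN at -0.60. FIGN was at 11.7 and 4.7 CPM in the transgenic libraries, against 12.1 and 12.5 CPM in the wild-type libraries. Most of its difference thus lay in transgenic library 2. The calpain list had 5 genes and a median of -0.13. CAPN2, the calpain that needs more calcium than CAPN1, was at 91.0 and 43.7 CPM in the transgenic libraries, against 111 and 98.9 CPM in the wild-type libraries. Transgenic library 2 thus lay well below the rest, as it did for the summed astrocyte markers, though not for GFAP. CAPN5 and CAPN10 were at 0.40 and -0.16.

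The 7 genes of intermediate filaments of other cells had no common direction, with 5 higher and 2 lower in sign. GFAP, the filament of astrocytes, was at 757 and 635 CPM in the transgenic libraries, against 695 and 517 CPM in the wild-type libraries, and its groups overlapped. LMNA, which encodes nuclear lamins A and C, was at 22.8 and 39.9 CPM in the transgenic libraries, against 15.0 and 16.7 CPM in the wild-type libraries (log2 fold change 0.99 ± 0.30 SE, n = 2 each; adjusted p = 0.79 in edgeR). NES, the gene for nestin, a filament of progenitors and vessels, was at 11.7 and 5.0 CPM in the transgenic libraries, against 24.7 and 15.7 CPM in the wild-type libraries (log2 fold change -1.28 ± 0.47 SE, n = 2 each; adjusted p = 0.79 in edgeR). LMNA was thus higher and NES lower in both transgenic libraries. The part of the lower endothelial markers in the NES value was not tested. PRPH, a neurofilament-like subunit of peripheral neurons, was at 1.5 and 4.9 CPM in the transgenic libraries, against 1.0 and 1.5 CPM in the wild-type libraries, a low level in every library.

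**Figure D5:**
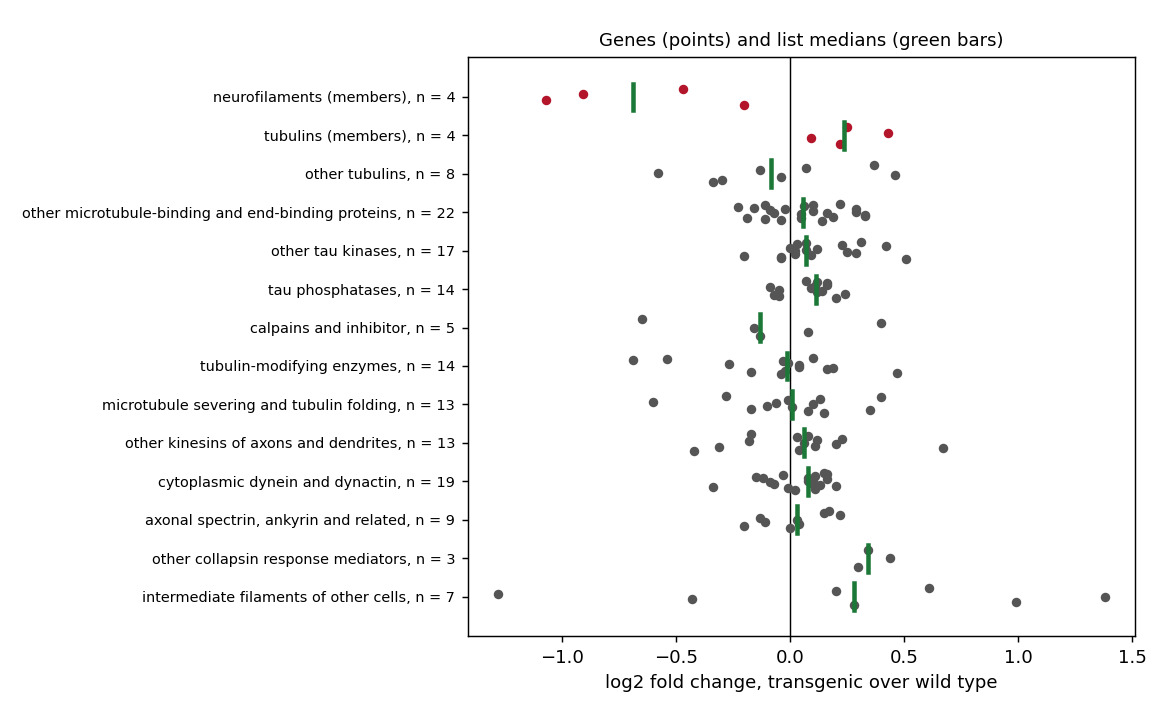
Fitted log2 fold change of transgenic over wild type for each gene (points) of the neurofilament and tubulin members and of the 12 companion lists, with the list median as a green bar. The neurofilament median of -0.69 lies left of every companion list, whose medians lie between -0.13 and 0.34.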

How the data were processed

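The authors deposited 1 table of raw counts, with a row per gene symbol and a column per library, used as it stands. Kallisto 0.46.2, STAR 2.5.3a and featureCounts 1.5.2 are listed in the submitters' processing notes, with no roles. Build, annotation and strand setting: not given in the sources used here. Overlapping and antisense genes therefore cannot be separated.

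Counts were filtered with filterByExpr, scaled by TMM and tested in R 4.3.3 with edgeR 4.0.16 (quasi-likelihood F-test), with genotype as the only term (2 residual degrees of freedom) and Benjamini-Hochberg adjustment over 16385 genes (threshold 0.05). The SE is the log2 fold change divided by the square root of F. CPM use TMM-scaled library sizes, log2 CPM a prior count of 2. A count of 3 equals 0.158 to 0.237 CPM. The steps were run on simulated data as a check of the code, with larger changes and less spread than in these libraries. That check does not show whether changes of the size fitted for the members can be detected. Alternatives used DESeq2 1.42.0 and limma 3.58.1 (voom), other scaling, filters, a replicate block and leaving out each library.

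The members and lists were chosen with earlier results of these data known. Named were MAPT, the smallest-p members of each role group, members without overlap, and up to 2 companion genes per list and direction without overlap and with a mean count of at least 20. Some genes that met this rule are not reported here. GFAP was named after its values were seen, and so were the neuronal markers given singly and the members shown only for their role. Marker genes for blood other than ALAS2 were not matched and are not analysed here.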

Additional observations from a re-analysis of the deposited data

How the results depend on the processing

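Against 0 genes and 0 members called by edgeR at an adjusted p of 0.05 (921 genes and 4 members at an unadjusted p under 0.05), DESeq2 called 46 genes and 2 members, and edgeR without a filter on low counts called 5 genes and 0 members. Limma-voom, RLE scaling, library totals and a minimum mean count of 50 called 0 of either. Leaving out 1 library gave 0 to 1710 genes and 0 to 4 members, with 3 genes without transgenic library 2, and the cause was not tested. The group left with 1 library was assumed to vary like the other. The members' median log2 fold change was 0.05 to 0.22 in those fits. Signs turned with library totals for CAPN1 (-0.02) and STMN3 (-0.02), and when 1 library was left out for 12 members: MAP1A (-0.04 to 0.18), MAP1B (-0.17 to 0.04), MAP4 (-0.14 to 0.07), GSK3A (-0.12 to 0.05), CDK5 (-0.02 to 0.22), CDK5R2 (-0.24 to 0.20), MARK2 (-0.04 to 0.15), CAPN1 (-0.10 to 0.16), TUBB4A (-0.02 to 0.18), STMN2 (-0.03 to 0.31), STMN3 (-0.13 to 0.16) and KIF5C (-0.01 to 0.12). The members not in this list, the neurofilament genes and DPYSL3 among them, kept their sign in every fit run. Same-numbered libraries did not deviate together (r = -0.137 over genes), and with the replicate number as a block edgeR called 0 genes and 0 members. With the numbers crossed, chosen after seeing the data, it again called 0 genes. With 2 libraries a group, differences of the size fitted for most members could not be told from the spread.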

Other observations

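Markers of immature neurons, a list set beside the members because DPYSL3 is known from growing axons, were higher in sign for 5 of 5 genes (median 0.32 on the log2 scale). SOX4, a transcription factor of newborn neurons, was at 23.7 and 36.2 CPM in the transgenic libraries, against 15.5 and 17.2 CPM in the wild-type libraries (log2 fold change 0.88 ± 0.25 SE, n = 2 each; adjusted p = 0.79 in edgeR). NEUROD1 was at 18.6 and 25.2 CPM in the transgenic libraries, against 16.2 and 18.9 CPM in the wild-type libraries. DCX, the gene for the microtubule-binding protein doublecortin, was at 33.4 and 24.8 CPM in the transgenic libraries, against 26.8 and 25.3 CPM in the wild-type libraries. SOX4 and SOX11 were higher in both transgenic libraries, 2 of 5 genes, against 19.5% of all genes, while NEUROD1, DCX and IGFBPL1 overlapped. None of the 5 passed in edgeR.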
